A study of Mus musculus with 12 samples.

Results

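The Musashi, Numb and Bcat axis was followed in murine leukaemic stem and progenitor cells through 6 genes, Msi1, Msi2, Numb, Numbl, Bcat1 and Bcat2. They were chosen by symbol and matched by Ensembl identifier, and all 6 were found among the 56748 genes of each count file. RNA-seq was carried out on CD45.2+ donor-derived Lin-Sca+Kit+ cells sorted from the BM of 12 recipient mice. Every recipient was a CD45.1 B6.SJL mouse aged 8 to 12 weeks, irradiated with 2 doses of 4.25 Gy given 3 h apart, and every donor cell carried SCLtTA/BCR-ABL (DTG), in which the SCL promoter drives the tetracycline transactivator in stem and progenitor cells. Tetracycline (TET), which keeps the human BCR::ABL1 transgene off, was given to all mice for 2 weeks after transplant. It was continued in 6 mice (CTRL, BCR::ABL1-) and withdrawn for 2 weeks in the other 6 (CML, BCR::ABL1+). Donor BM is described as pooled from DTG mice, so the libraries of a group are different recipients and not different single donors. Whether all 12 recipients shared the same pool is not stated. The human transgene was not counted, so its induction could not be checked here. The labels give male for the CTRL and female for the CML libraries, although donors and recipients are described as of both sexes. Sex as labelled and BCR::ABL1 cannot be told apart.

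Musashi proteins are RNA-binding proteins that bind short sequences in the 3′ untranslated region (UTR) of messenger RNAs and alter their translation. Numb is an adaptor that is passed unequally between daughter cells and restrains Notch, and its messenger RNA is the classical Musashi target. In myeloid leukaemia, Musashi 2 has been described to restrain Numb and to favour Bcat1, a cytosolic aminotransferase that interconverts branched-chain amino acids (BCAA) and their keto acids. RNA-seq reads the level of the transcripts and not their translation, and in sorted bulk samples a lower share of a cell type and less RNA per cell cannot be told apart.

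The sequences at issue are the Musashi-type motifs of the Numb and Bcat1 transcripts. The letters GTAGT and ATAGT, and the forms of each in which the first T is repeated to a run of 2 or 3, were searched on the sense strand of the longest 3′ UTR of a coding transcript of each gene. That of Numb (1405 bases) held 4, or 2.85 per 1000 bases, which was above 76.4% of 18087 genes. That of Bcat1 (6428 bases) held 10, or 1.56 per 1000 bases, close to the median of all genes (1.63), and that of Msi2 itself (5310 bases) also held 10. Msi1 (1895 bases) held 1, and Numbl (732 bases) and Bcat2 (367 bases) held 0. At least 1 motif was found in 75.1% of the genes, so a match is a description of the letters and not of a bound site. Windows that hold all 4 motifs of Numb, and only some of the 10 of Bcat1, are given below. The motif is in capitals, on the minus strand of GRCm38. The window at position 840 of the Numb UTR overlaps another motif at position 843.
Numb, UTR position 502, chr12:83794923-83794947: cagtagagctGTAGTctggggataa
Numb, UTR position 617, chr12:83794808-83794832: aatattttaaATAGTtctcaatatt
Numb, UTR position 840, chr12:83794585-83794609: cagtcactagGTAGTagttttaata
Bcat1, UTR position 93, chr6:145000156-145000180: cttgcacattGTAGTcgcgttcctc
Bcat1, UTR position 197, chr6:145000052-145000076: attgcttactGTAGTctccctcacc
Bcat1, UTR position 5117, chr6:144995131-144995156: gccaagtacaGTTAGTgttgccagtg

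Depth was 22804754 to 41832868 counts in CTRL and 16150817 to 25070105 in CML. Genes of the mitochondrial genome took 0.816% to 1.29% of counts in CTRL and 2.26% to 2.97% in CML. A change was called where edgeR's quasi-likelihood test gave a Benjamini-Hochberg adjusted p under 0.05 over all genes tested. Of 18438 genes tested, 10976 (59.5%) were called, 30.6% as higher and 29.0% as lower in CML, and in 37.6% the groups did not overlap. Against this background, 3 of the 5 members that could be tested were called, Bcat1 and Bcat2 as higher and Msi2 as lower, and only Msi2 had no overlap between the groups. Numb and Numbl were not called, and Msi1 had too few counts to be tested. The share of members called is near that of all genes, and each member is therefore described by its own values. CML replicate 2 stood apart. The biological coefficient of variation was 10.8% in CTRL and 32.5% in CML, and 24.6% in CML without that library. The sum of 6 stromal genes was 768.8 CPM (counts scaled to library size with TMM factors) in CML replicate 2 and 266.7 CPM in CML replicate 4, against 1.97 to 2.45 CPM in the other 4 CML libraries and 4.29 to 19.8 CPM in CTRL.

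**Figure D1:**
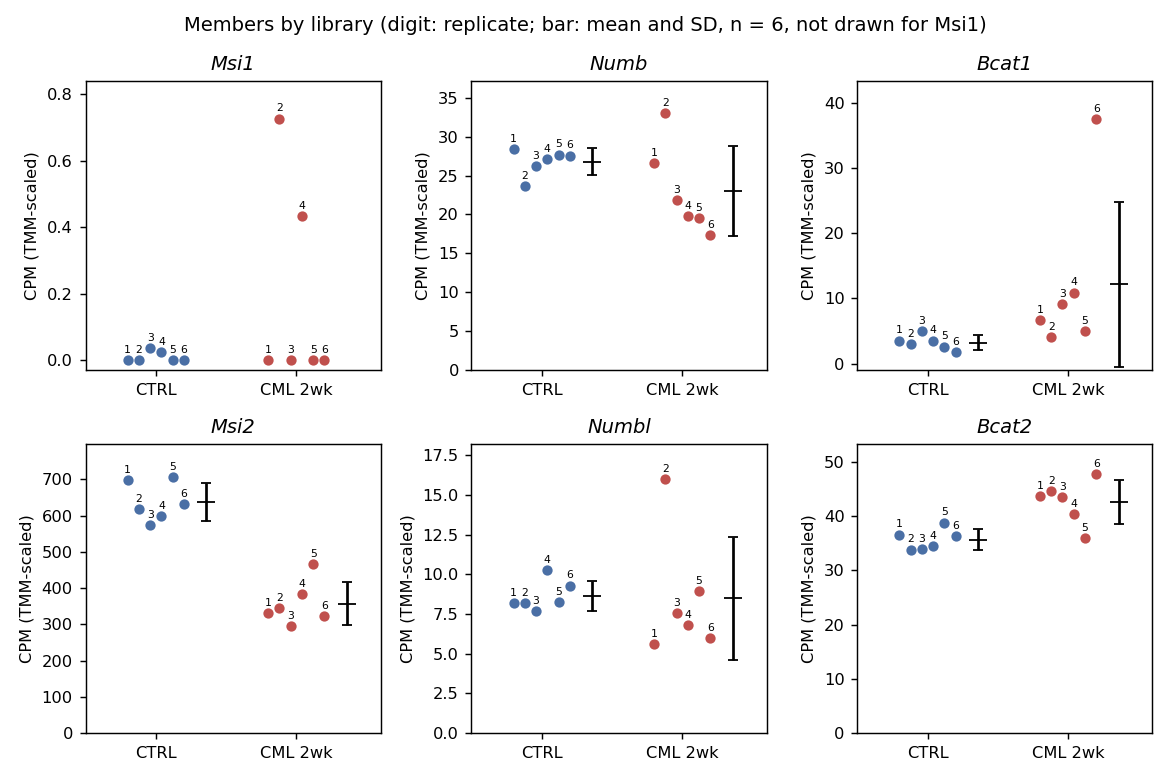
Level of each member in CPM (linear vertical axes) in the 6 CTRL and 6 CML libraries, with the replicate number beside each point and the mean and SD (n = 6) to the right of each group except for Msi1. The groups are apart for Msi2, Bcat1 is raised most in CML replicate 6 (37.5 CPM), Numbl in CML replicate 2 (16.0 CPM), and Msi1 is above 0.1 CPM in CML replicates 2 and 4 alone.

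Msi2 (ENSMUSG00000069769, chromosome 11, 88339382 to 88718513 on the minus strand of GRCm38) was the most abundant member and the one with the clearest change. Its level was 573.7 to 705.7 CPM in CTRL (median 625.4) and 295.5 to 465.7 CPM in CML (median 338.2). Every CML library was below every CTRL library. The mean fell from 637.9 ± 53.7 to 357.4 ± 60.4 CPM (SD, n = 6), a log2 fold change of -0.83 (SE 0.101; 1.78-fold lower; edgeR adjusted p = 6.19e-06). The difference was as large without the libraries that stood apart, with -0.83 without CML replicate 2 and -0.86 without CML replicates 2 and 4. Msi2 ranked 231 by mean log2 CPM, and 2122 by adjusted p, among the genes tested.

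Several measures of the samples moved with Msi2, and their part in its change was not tested. Kit, the receptor used in the sort, was 681.0 to 800.4 CPM in CTRL and 323.1 to 521.5 CPM in CML, also without overlap, whereas Ly6a, which encodes Sca, was 27.3 to 38.3 CPM in CTRL and 31.3 to 74.0 CPM in CML. The sum of 8 stem cell genes was 489.3 to 636.7 CPM in CTRL and 192.3 to 288.1 CPM in CML, with 6 of 8 called lower. All of 6 granulocyte genes were called higher, with sums of 1893 to 2587 CPM in CTRL and 3258 to 9023 CPM in CML. Of 6 genes each, 4 monocyte and 4 mast cell or basophil genes were called higher, and 5 megakaryocyte, 5 erythroid and 2 lymphoid genes lower. The summed antigens of the lineage-negative gate stayed low, at 18.9 to 41.3 CPM in CTRL and 8.55 to 19.9 CPM in CML. Msi2 is also a long transcript (10405 exonic bases). When the genes with a known length (96.6%) were ranked by exonic bases in 5 equal bins, in the longest bin (6586 bases or more), 51.9% were called lower and 18.2% higher, whereas in the shortest bin 5.97% were called lower and 40.9% higher. Numbl (8673 bases) and Bcat1 (9322 bases) belong to that same longest bin.

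Over the 12 libraries, the genes whose log2 CPM was most like that of Msi2 among 11413 compared were Angpt1 (Pearson r = 0.993), a ligand of the Tie2 receptor, Pcyt1b (r = 0.992), an enzyme of phosphatidylcholine synthesis, and Erg (r = 0.989), an ETS transcription factor of stem cells. The points share the 2 groups, so such a correlation mostly describes a common difference between them. Angpt1 was 501.3 CPM in CTRL and 252.2 CPM in CML on average, and Erg was 200.4 and 95.2 CPM.

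The Msi2 promoter is shown because USF2, which binds the E-box CACGTG, has been described upstream of Msi2. Whether Usf2 had a part in the change of Msi2 was not tested. Usf2 was lower in CML (60.0 ± 3.36 against 45.8 ± 5.72 CPM, log2 fold change -0.39, SE 0.0796, edgeR adjusted p = 0.000695). The RefSeq window from 250 bases before to 50 bases after a start of Msi2 (GRCm38.p6, minus strand) held 2 copies of CACGTG, which reads the same on both strands and is given in capitals. All 3 Msi2 windows listed held 2 copies, and they overlap, so 1 is shown.
Msi2, chr11:88718228-88718527: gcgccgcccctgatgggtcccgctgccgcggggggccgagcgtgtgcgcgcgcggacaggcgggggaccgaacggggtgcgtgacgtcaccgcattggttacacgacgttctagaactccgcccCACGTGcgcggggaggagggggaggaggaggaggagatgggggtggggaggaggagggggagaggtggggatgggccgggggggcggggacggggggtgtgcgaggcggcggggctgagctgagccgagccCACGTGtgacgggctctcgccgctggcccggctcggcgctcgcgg
Of 32851 promoter windows, 7.15% held the letters and 0.594% held them 2 or more times. These shares are not matched for base composition. G and C made up 76.3% of the Msi2 window shown and 41.0% to 67.3% of the windows of other members. The 8 windows of Numb, Numbl, Bcat1 and Bcat2 held 0 copies, and Msi1 had no entry. Usf1, the partner of Usf2, was 60.9 ± 4.10 CPM in CTRL and 65.3 ± 5.70 CPM in CML (edgeR adjusted p = 0.214). Plag1, the other factor described upstream of Msi2, was 8.04 to 13.8 CPM in CTRL and 3.06 to 10.9 CPM in CML and was not called (log2 fold change -0.55, edgeR adjusted p = 0.0704).

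Msi1 (ENSMUSG00000054256, chromosome 5, 115429599 to 115455698 on the plus strand), the paralog of Msi2 best known from neural progenitors, was near 0. It had 1 count each in CTRL replicates 3 and 4 and 0 in the other 4 CTRL libraries, where 0 counts allow a level of up to 3 counts, or 0.0717 to 0.132 CPM at these depths. In CML it had 17 counts (0.727 CPM) in replicate 2 and 8 counts (0.434 CPM) in replicate 4, and 0 in the remaining 4. These are the libraries with the high stromal sums, and the part of the stromal cells in the Msi1 counts was not tested. With the filter on low counts removed, the adjusted p of Msi1 was 0.0425 by edgeR and 0.0675 by DESeq2, and this difference rests on those libraries. Msi2 thus made up nearly all Musashi messenger RNA in both groups: 61.3 ± 5.16 CPM per 1000 exonic bases against 0.00177 ± 0.00283 for Msi1 in CTRL (SD, n = 6), and 34.3 ± 5.80 against 0.0334 ± 0.0541 in CML.

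Numb (ENSMUSG00000021224, chromosome 12, 83794034 to 83921934 on the minus strand) was 23.6 to 28.4 CPM in CTRL (median 27.3) and 17.3 to 33.0 CPM in CML (median 20.8). Of the CML libraries, replicates 3 to 6 were below all CTRL libraries, whereas replicate 2 was above them all and replicate 1 (26.6 CPM) lay among them. The difference did not pass the test (26.8 ± 1.71 against 23.0 ± 5.82 CPM, log2 fold change -0.22, SE 0.134, 95% interval -0.48 to 0.04, edgeR adjusted p = 0.173). A single library decided this: without CML replicate 2 the log2 fold change was -0.36 (edgeR adjusted p = 0.00485), and without CML replicates 2 and 4 it was -0.34 (edgeR adjusted p = 0.0116). In none of the 20 alternatives was Numb higher in CML. Numb shares 166 exonic bases in GRCm38 with Gm46367, on the opposite strand (20 to 41 counts per library). Over the 12 libraries, Numb was most like Deptor (r = 0.949), an inhibitor of mTOR, Pttg1 (r = 0.945), which encodes securin, and Elmod3 (r = 0.923), as a description. These correlations include CML replicate 2, and its part in them was not tested.

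Numbl (ENSMUSG00000063160, chromosome 7, 27258433 to 27282144 on the plus strand), the Numb-like paralog with overlapping functions, was 7.67 to 10.3 CPM in CTRL (median 8.20) and 5.61 to 16.0 CPM in CML (median 7.16). The groups overlapped, and CML replicate 2 stood highest at 16.0 CPM against 8.96 CPM in the next. Numbl shares 85 exonic bases in GRCm38 with Gm44641, on the same strand. In CML replicate 2, Gm44641 had 14 counts and Numbl 374, and in the other libraries Gm44641 had 0 to 6. The part of the shared bases in the Numbl values was not tested. No direction could be given: the log2 fold change was -0.023 (SE 0.223, edgeR adjusted p = 0.938), 0.046 with upper-quartile scaling and -0.32 without CML replicate 2 (edgeR adjusted p = 0.0580). The balance of the pair did not differ detectably either. The log2 ratio of Numb to Numbl was 1.63 ± 0.160 in CTRL and 1.49 ± 0.424 in CML (SD, n = 6), a difference of -0.13 (two-sided exact permutation test, p = 0.476).

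Bcat1 (ENSMUSG00000030268, chromosome 6, 144993835 to 145076184 on the minus strand) was low in CTRL, at 1.74 to 4.97 CPM (median 3.27). In CML it was 4.02 to 37.5 CPM (median 7.88). In all, 5 CML libraries, of which replicate 6 was far above the rest, exceeded all CTRL libraries, and replicate 2 (4.02 CPM) did not. The mean was 3.24 ± 1.09 CPM in CTRL and 12.2 ± 12.7 CPM in CML (SD, n = 6), and the log2 fold change was 1.91 (SE 0.484; 3.75-fold; edgeR adjusted p = 0.00348). Its size, but not its call, depended on CML replicate 6. Without that library it was 1.12 (2.17-fold, edgeR adjusted p = 0.00419), and without replicate 6 of both groups, whose library numbers in the labels stand outside the run of the others, it was 1.01 (2.02-fold, edgeR adjusted p = 0.00777).

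In CML replicate 6 the antisense gene Gm26666, which shares 337 exonic bases with Bcat1 in GRCm38, also had 40 counts, against 0 to 6 in the other 11 libraries. Bcat1 itself had 760 counts there and 46 to 201 elsewhere. The strand setting of the counting is not given in the sources used here, so reads of the shared bases cannot be assigned to one of them. The genes most like Bcat1 over the 12 libraries were Txnl4a (r = 0.965), of the spliceosome, Hikeshi (r = 0.962), an importer of heat shock proteins into the nucleus, and Ndufb11 (r = 0.960), of respiratory complex I. Their changes were smaller than that of Bcat1, with log2 fold changes of 0.51, 0.45 and 0.50. The correlations include CML replicate 6, and its part in them was not tested.

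Bcat2 (ENSMUSG00000030826, chromosome 7, 45570153 to 45589711 on the plus strand) encodes the mitochondrial aminotransferase. It was 33.9 to 38.9 CPM in CTRL (median 35.4) and 35.9 to 47.8 CPM in CML (median 43.6). In all, 5 CML libraries were above all CTRL libraries, and replicate 5, at 35.9 CPM, lay within their range. The rise was small (35.7 ± 1.95 against 42.7 ± 4.07 CPM, log2 fold change 0.26, SE 0.0713, 1.20-fold, edgeR adjusted p = 0.00593). It was lost when no filter on low counts was applied (0.19, edgeR adjusted p = 0.0597). Bcat2 shares 622 exonic bases with the antisense gene 0610005C13Rik (25 to 59 counts per library). Of its 50-base stretches, 11.6% were found in other genes on either strand, and that antisense gene was among the genes searched. No member shared such a stretch with its own paralog.

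The balance of the aminotransferases moved towards Bcat1. Bcat2 was the more abundant in every library, with a log2 ratio of Bcat1 to Bcat2 of -3.50 ± 0.539 in CTRL and -2.24 ± 1.07 in CML (SD, n = 6). The difference of 1.25 (2.38-fold) gave p = 0.0216 in a two-sided exact permutation test, and 0.0325 after Benjamini-Hochberg adjustment over 3 ratios. That ratio needs no library scaling, but its call depended on replicate 6. The difference was 0.88 without CML replicate 6 (exact permutation p = 0.0325), 1.09 without CTRL replicate 6 (exact permutation p = 0.0519) and 0.71 without replicate 6 of both groups (exact permutation p = 0.0794).

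**Figure D2:**
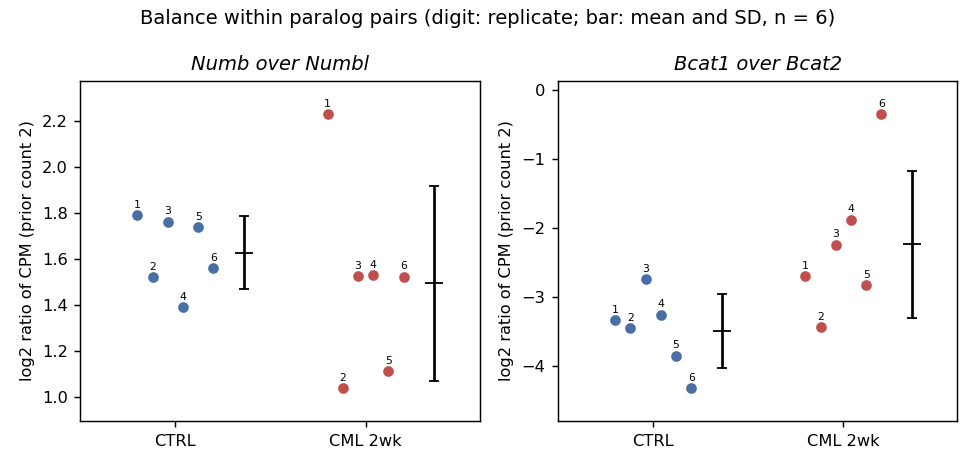
Log2 ratio of CPM within the Numb and Bcat pairs (vertical axes, prior count 2) in each CTRL and CML library, with replicate numbers and the mean and SD (n = 6). The Numb to Numbl ratios of the groups overlap, while Bcat1 to Bcat2 ratios average -3.50 in CTRL and -2.24 in CML, with CML replicate 6 highest at -0.35.

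Per exonic length, the order of the members in CTRL was Msi2 (61.3 CPM per 1000 bases), Bcat2 (9.15), Numb (6.83), Numbl (0.995), Bcat1 (0.347) and Msi1 (0.00177), and no neighbours overlapped in range. In CML, Bcat1 (1.31 ± 1.36 CPM per 1000 bases) came before Numbl (0.977 ± 0.447), but these neighbours overlapped. All other neighbours in CML kept apart.

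Whether Msi2 ran with Numb or Bcat1 among libraries of the same group was examined in 4 relations, none of which passed. Msi2 and Numb gave r = 0.50 in CTRL (exact permutation p = 0.322; Spearman's rho 0.77, exact p = 0.103) and r = -0.22 in CML (exact p = 0.668; rho -0.09, exact p = 0.919). Msi2 and Bcat1 gave r = -0.39 in CTRL (exact permutation p = 0.465; rho -0.54, exact p = 0.297) and r = -0.37 in CML (exact p = 0.446; rho -0.43, exact p = 0.419). Benjamini-Hochberg adjusted values were 0.620 to 0.668 for r and 0.411 to 0.919 for rho. Leaving out CTRL replicate 2 brought Msi2 and Numb in CTRL to r = 0.89 (exact permutation p = 0.0417, not adjusted). Without the 2 libraries farthest from the median of Msi2, r was -0.06 and -0.06 for Numb and -0.95 and -0.28 for Bcat1, in CTRL and CML, over 4 libraries each.

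**Figure D3:**
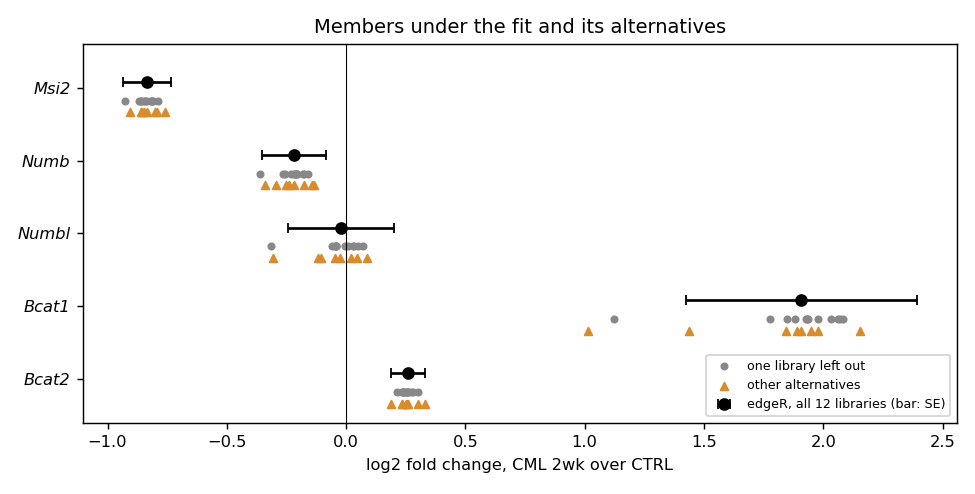
Log2 fold change of CML over CTRL (horizontal axis) for the 5 members tested, with the edgeR estimate and its SE in black, fits without 1 library in grey and the other alternatives as orange triangles. Msi2 stays below 0 and Bcat1 and Bcat2 above 0 in all 20 alternatives, Bcat1 ranges from 1.01 to 2.15, and Numbl lies on both sides of 0.

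The Musashi 2 list mixed 3 RNA-binding partners, 5 transcripts described as bound and 3 factors described upstream of Msi2. Of these 11 genes, all tested, 6 were called lower, 0 higher and 5 neither. The lower calls were 2 partners, 3 bound transcripts and 1 upstream factor. The median log2 fold change was -0.37 against 0.07 over all genes. The share called (54.5%) was near that of all genes (59.5%), and the share called lower was 54.5% against 29.0%, as a description with no test of the list. With upper-quartile scaling the counts were 5 lower and 2 higher, and they were 5 lower and 0 higher without replicate 6 of both groups and without CML replicates 2 and 4. Among its RNA-binding partners, Pabpc1, the main cytoplasmic poly(A)-binding protein, fell from 2722 ± 156.2 to 1769 ± 192.3 CPM (log2 fold change -0.62, SE 0.0788, edgeR adjusted p = 9.75e-06), and its relative Pabpc4 changed by -0.37 (edgeR adjusted p = 0.000102). Syncrip, a partner described in leukaemia stem cells, was not called (0.12, SE 0.0696, edgeR adjusted p = 0.167), but with upper-quartile scaling it was (0.19, edgeR adjusted p = 0.0171).

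Transcripts that Musashi 2 is described to bind in leukaemia differed among themselves. Smad3, a transducer of TGF-beta, was 1.86-fold lower (114.6 ± 4.32 against 61.4 ± 10.2 CPM, edgeR adjusted p = 1.50e-06). Hoxa9, a homeobox factor of leukaemic self-renewal, was 1.57-fold lower (73.1 ± 9.56 against 46.7 ± 4.44 CPM, edgeR adjusted p = 2.69e-05). Ikzf2 was called lower with a log2 fold change of -0.25 (edgeR adjusted p = 0.0250), a call kept in 14 of 20 alternatives. It was lost with upper-quartile scaling (-0.17, edgeR adjusted p = 0.127) and without CTRL replicate 6 (-0.22, edgeR adjusted p = 0.0573). The call was also lost without CML replicates 2 and 4 (-0.22, edgeR adjusted p = 0.0674) and without replicate 6 of both groups (-0.15, edgeR adjusted p = 0.131). Myc (-0.09, edgeR adjusted p = 0.360) and Tgfbr1 (0.11, edgeR adjusted p = 0.376) were not called.

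Of the 17 partners of Numb in endocytosis, polarity and ubiquitination, 16 were tested, 9 were called lower, 0 higher and 7 neither (median log2 fold change -0.31). The share called (56.2%) was near the 59.5% of all genes, with 56.2% called lower against 29.0%. The endocytic genes held 6 of these 9. Ap2a1, Ap2a2 and Ap2b1, the large subunits of the AP2 clathrin adaptor through which Numb takes receptors up, had log2 fold changes of -0.71, -0.79 and -0.78 (SE 0.0641, 0.0712 and 0.0703), and the groups did not overlap. Llgl1, a polarity gene of the lethal giant larvae family, was 57.4 ± 1.82 CPM in CTRL and 30.4 ± 6.99 CPM in CML (log2 fold change -0.91, edgeR adjusted p = 1.24e-05). Without CML replicate 2 the list counted 11 lower and 0 higher.

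In the Notch pathway, on which Numb acts, 33 of 38 genes were tested, and 18 were called lower, 4 higher and 11 neither (median log2 fold change -0.34). That is 66.7% called, 54.5% lower and 12.1% higher, against 59.5%, 29.0% and 30.6% of all genes. For this and the other lists, the shares of all genes are not matched for exonic length. In the longest bin of genes 51.9% were called lower and 18.2% higher, and the part of length in the lists was not tested. Without CML replicate 2 the counts were 24 lower and 4 higher. The abundant receptors fell. Notch1 went from 203.9 ± 15.0 to 80.1 ± 11.1 CPM (log2 fold change -1.35, SE 0.0885, edgeR adjusted p = 3.98e-08), and Notch2 from 501.0 ± 20.1 to 234.9 ± 23.6 CPM (-1.09, SE 0.0699, edgeR adjusted p = 3.50e-08). Notch3, at a far lower level, rose from 2.06 ± 0.454 to 4.52 ± 1.29 CPM (1.14, edgeR adjusted p = 0.000320). Notch4 was not called (-0.38, edgeR adjusted p = 0.283), but without CML replicate 2 it was (-0.77, edgeR adjusted p = 0.00262).

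All 5 genes of the nuclear Notch complex were called lower. Rbpj, the DNA-binding factor, changed least (-0.30, SE 0.0638), and its coactivators Maml1 (-0.55), Maml2 (-1.33) and Maml3 (-0.78) and the corepressor Spen (-0.86) changed more. The Deltex ubiquitin ligases did not move in 1 direction. Dtx4 rose from 40.3 ± 4.39 to 72.6 ± 23.7 CPM without overlap (0.85, edgeR adjusted p = 0.000504). Dtx3 fell from 64.1 ± 4.91 to 17.0 ± 3.69 CPM (-1.92, edgeR adjusted p = 3.06e-08), and Dtx2 was called lower (-0.60, edgeR adjusted p = 0.000253). Dtx1, at under 1 CPM in all libraries, was -1.51 (edgeR adjusted p = 0.0147), and -2.17 without CML replicates 2 and 4. Of the 3 ligand genes tested, Jag2 was called lower without overlap (16.8 ± 0.905 against 11.7 ± 3.36 CPM, -0.51, edgeR adjusted p = 0.0126). Dll1 was not called (0.35, edgeR adjusted p = 0.630). Jag1 was called higher (2.26, SE 0.683, edgeR adjusted p = 0.0106). Its rise was set by CML replicate 2, at 26.3 CPM against 1.08 to 5.10 CPM in the other CML libraries and 1.05 to 1.66 CPM in CTRL. It was 0.83 without that library (edgeR adjusted p = 0.0370) and 0.37 without CML replicates 2 and 4 (edgeR adjusted p = 0.198). Of 3 target genes that could be tested (Hes1, Hes5 and Nrarp), 0 were called. Their means were low, at 1.76, 1.47 and 2.13 CPM in CTRL and 2.53, 1.13 and 1.47 CPM in CML. Their log2 fold changes were 0.53 (SE 0.456), -0.37 (SE 0.310) and -0.52 (SE 0.259). With such errors, the lack of a call does not show that they were unchanged.

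In the BCAA pathway, Bcat1 and Bcat2 take the first step. All of its 29 other genes were tested, and 15 were called higher, 8 lower and 6 neither (median log2 fold change 0.25). That is 51.7% higher and 27.6% lower, against 30.6% and 29.0% of all genes, and the difference from the other lists was not tested. In the branched-chain keto acid dehydrogenase, the committed step that follows, the E1 subunits Bckdha (-0.10, edgeR adjusted p = 0.600) and Bckdhb (0.16, edgeR adjusted p = 0.117) were not called. Bckdhb was called higher without CML replicate 6 (0.19, edgeR adjusted p = 0.0463) and with upper-quartile scaling (0.24, edgeR adjusted p = 0.0344). The E2 subunit Dbt rose from 21.4 ± 3.41 to 40.8 ± 7.19 CPM (0.93, SE 0.129, edgeR adjusted p = 2.35e-05). The E3 subunit Dld, which serves other dehydrogenases too, rose from 94.3 ± 5.70 to 200.6 ± 30.3 CPM (1.09, SE 0.0924, edgeR adjusted p = 2.59e-07). Both regulators were lower, the phosphatase Ppm1k by more (-0.58, edgeR adjusted p = 4.89e-06) than the kinase Bckdk (-0.18, edgeR adjusted p = 0.0264; -0.11 with upper-quartile scaling, edgeR adjusted p = 0.152). The call of Bckdk was also lost without CTRL replicate 1 (-0.17, edgeR adjusted p = 0.0575) or CML replicate 4 (-0.17, edgeR adjusted p = 0.0502).

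Further along, the largest changes were those of Echs1, the mitochondrial enoyl-CoA hydratase (65.3 ± 4.42 against 169 ± 31.9 CPM, 2.58-fold higher, edgeR adjusted p = 1.37e-07), and Hibch, of valine breakdown (41.2 ± 3.27 against 89.9 ± 16.6 CPM, 2.18-fold higher, edgeR adjusted p = 7.88e-07). All 4 genes of the propionyl arm were called higher. The leucine arm was mixed, with 3 of 5 higher and 2 lower, as were the transporters, with 1 of 6 higher and 3 lower. Most of these enzymes are mitochondrial, though their genes are not of the mitochondrial genome. The share of counts from genes of the mitochondrial genome was higher in CML. Its part in these changes was not tested.

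**Figure D4:**
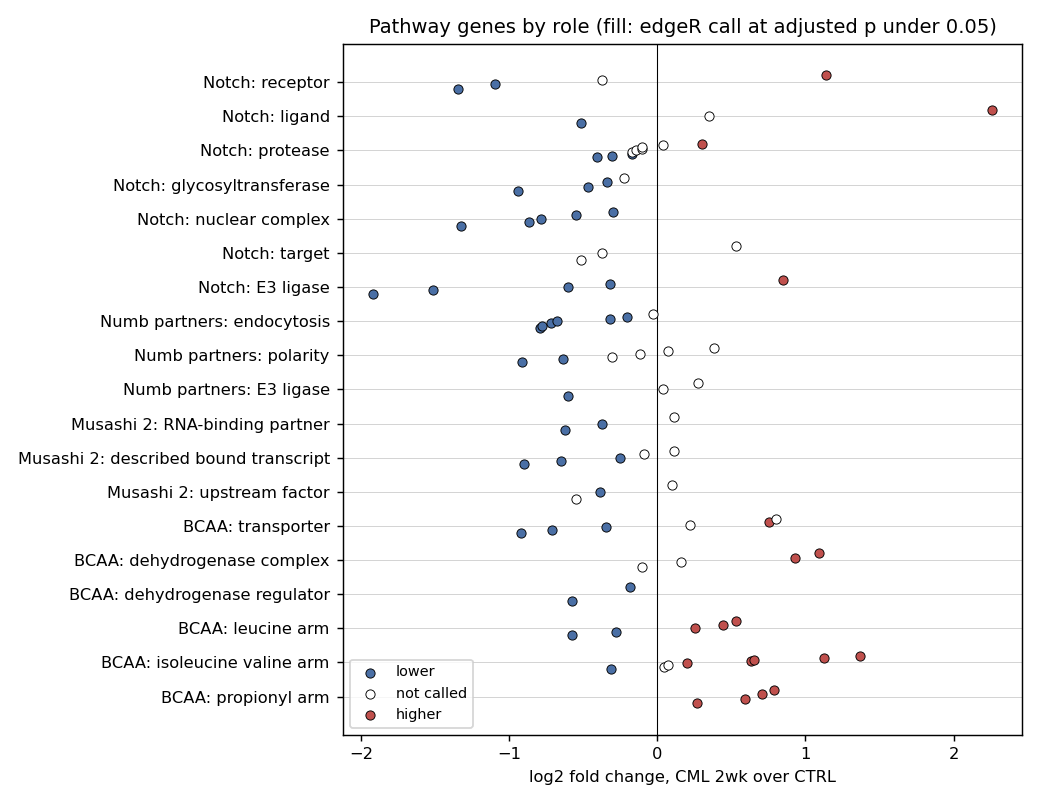
Log2 fold change of CML over CTRL (horizontal axis) for each tested gene of the 4 pathway lists, in rows by role, filled red where called higher, blue where called lower and white where not called (edgeR adjusted p under 0.05). The 5 nuclear Notch genes and 6 endocytic partners of Numb are called lower, and the 4 genes of the propionyl arm higher.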

How the data were processed

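Bulk RNA-seq of 12 libraries was analysed, 6 CTRL and 6 CML, grouped by their labels. The authors deposited raw counts per mouse Ensembl gene. Per the labels, the processing notes name FastQC 0.11.9, fastp 0.23.2, STAR 2.7.10a, featureCounts 2.0.1, DESeq2 1.36.0 and GRCm39, whereas the methods of the study name Trim Galore!, HISAT2, featureCounts and a human build. Which annotation was used, whether counting was stranded and how multiply mapped reads were handled is not given in the sources used here. Locations, exon lengths and UTRs came from GENCODE M21 on GRCm38 and promoters from RefSeq on GRCm38.p6, matched by identifier or symbol (52073 of 56748 identifiers), so lengths may differ from those used in counting.

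Counts were fitted with edgeR 4.0.16 (R 4.3.3; TMM factors, filterByExpr, quasi-likelihood test without covariates, 18438 genes) and Benjamini-Hochberg adjustment at 0.05. Levels are CPM with TMM-scaled library sizes. Ratios and correlations used log2 CPM with a prior count of 2 and exact permutation tests, two-sided, whose smallest p is 0.00216 for 6 against 6 libraries. A count of 0 was read as up to 3 counts, which covers counting error only. Libraries of a group differed by more than counting noise in every pair (chi-square over its degrees of freedom at least 4.07). P-values measure the spread between recipients of pooled donor cells. The fit was run on simulated data in which few genes changed and both groups had the same spread per gene. These libraries had many changed genes and a wider spread in CML, so that run does not cover their scaling or p-values.

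The members and lists were chosen with earlier results of these data known. All 6 members were named. Of each pathway list, the receptors, nuclear complex, Musashi 2 partners, bound transcripts, dehydrogenase subunits and regulators were named, with the 4 largest changes among the genes called, and for Msi2, Numb and Bcat1 the 3 genes with the highest correlation (mean log2 CPM of at least 1). Usf1, Plag1, Hes1, Hes5, Nrarp, Dtx2, Dtx4, Jag2 and Dll1 were named after their values were seen. Alternatives were other scalings (RLE and upper-quartile factors), no filter, a filter of 1 CPM in 6 libraries, DESeq2 1.42.0, a replicate block, a prior count of 0.5, and fits without libraries. Python 3.11.15, scipy 1.17.1 and matplotlib 3.10.9 were used. Single-cell and human data of the study were not analysed here.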

Additional observations from a re-analysis of the deposited data

Results flagged for a closer look

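In 84 groups of 6 libraries, for the members and the pathway genes named by rule, the highest or lowest library was compared with the rest. Dixon's criterion was used, which chance alone would meet in about 4.2. It was met 6 times, and 4 of these were in CML replicate 2. Numbl was 16.0 CPM there against 8.96 CPM in the next library. Jag1 was 26.3 CPM against 5.10, Notch4 9.20 CPM against 4.35, and Tgfbr1 128.1 CPM against 92.5. The same library had the highest stromal sum (768.8 CPM), and the part of stromal cells in these values was not tested. Bcat1 was 37.5 CPM in CML replicate 6 against 10.9 CPM in the next, with a stromal sum there of 1.97 CPM. Bckdhb was 15.2 CPM in CTRL replicate 4 against 14.0 CPM in the next.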

How the results depend on the processing

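Over 20 alternatives each, Msi2 stayed called lower (-0.93 to -0.76) and Bcat1 called higher (1.01 to 2.15). Bcat2 stayed higher but missed the threshold without a filter (0.19, adjusted p = 0.0597). Without 1 library each, the ranges were -0.93 to -0.79 for Msi2, -0.36 to -0.16 for Numb, -0.32 to 0.069 for Numbl, 1.12 to 2.08 for Bcat1 and 0.21 to 0.30 for Bcat2. Numb was called lower without CML replicate 2 (-0.36) and without CML replicates 2 and 4 (-0.34). Numbl turned positive with upper-quartile factors (0.046), with the filter of 1 CPM (0.019) and without replicate 6 of both groups (0.087), and also without CTRL replicate 4 (0.028) or CML replicate 1 (0.069), 3 (0.0083), 4 (0.032) or 6 (0.049). The cause was not tested.

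Without 1 library, the change in Bcat1 over Bcat2 was 0.88 to 1.49, past the threshold except without CTRL replicate 6 (1.09). It also missed it without replicate 6 of both groups (0.71). That in Numb over Numbl was -0.28 to -0.04. The correlation of Msi2 with Numb was 0.33 to 0.89 in CTRL, where it had an exact permutation p of 0.0417 without CTRL replicate 2, and -0.45 to 0.049 in CML, positive without CML replicate 5 (0.049). That of Msi2 with Bcat1 was -0.69 to 0.025 in CTRL, positive without CTRL replicate 3 (0.025), and -0.47 to -0.15 in CML. Tgfbr1 ranged from -0.014 to 0.17 without 1 library, was negative without CML replicate 2, and was -0.027 without CML replicates 2 and 4.

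The replicate numbers did not pair the libraries: the correlation of deviations between libraries of the same number was -0.13 to 0.07 over 6 pairs, 0 above 0.1, and in 1 of 6 the own number was highest. With the replicate block, Msi2 was -0.85, Numb -0.25, Numbl -0.12, Bcat1 1.44 and Bcat2 0.26, no member changed its call, and 4786 genes were called higher and 5189 lower against 5637 and 5339. Low counts limit Bcat1 (46 to 760 counts) and leave Msi1 undecided.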
